A study of Mus musculus with 15 samples.

Results

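The genes described here are 29 genes of B lymphocytes and of the plasma cells that B lymphocytes turn into, found by symbol among the 45905 genes of the deposited mouse tables. Of them, 20 are B cell genes (the receptor, its signalling proteins and the transcription factors of the lineage), 6 are plasma cell genes and 3 serve both stages. They were read mainly in 6 libraries of gut tissue, with 9 libraries of intestinal organoids as the epithelial background. An organoid is a small epithelial structure grown in a gel, so it should hold no lymphocytes.

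The study asked what plakoglobin, the junction protein encoded by Jup, does in the intestinal epithelium. The gut libraries fall into 3 described as PG_KO and 3 described as ctr. The titles disagree with these descriptions: they give the PG_KO libraries a floxed Jup gene and DSS colitis (a chemical injury of the colon), and give the ctr libraries the floxed gene with iVilCre ERT2, a tamoxifen-inducible Cre recombinase under the villin promoter of intestinal epithelium. A floxed Jup gene is therefore common to both groups by title, and which animals received DSS or carried Cre cannot be settled from the labels, so DSS, Cre and genotype cannot be told apart. The organoid groups, with 3 libraries each, are Tamoxifen (code T41, floxed Jup with Cre by title), DMSO and nativ (both code T75, floxed Jup without Cre). Each organoid group carries 1 code, so its replicates may share 1 source, whereas each gut library carries a code of its own. Neither the age of the animals nor the stretch of gut is given in the sources used here. The labels do not say whether replicates came from separate animals or cultures, so the p-values below measure the spread between these samples, which may in part be technical. Jup itself stood at 75.2, 82.8 and 80.3 CPM (reads of the gene as counts per 1e6 reads of the library) in PG_KO, and at 302, 375 and 495 CPM in ctr libraries, so its RNA followed the descriptions, which name the groups here, although its log2 change of -2.29 (SE 0.23) did not pass with edgeR (adjusted p = 0.162; DESeq2 adjusted p = 2.3e-14).

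A B cell carries a membrane antibody coupled to the proteins Cd79a and Cd79b, which pass the antigen signal to kinases and adaptors inside the cell. In the intestine, resting B cells gather in lymphoid follicles such as Peyer's patches, whereas plasma cells lie scattered in the lamina propria under the epithelium and secrete mostly immunoglobulin A (IgA). IgA leaves the plasma cell as pairs of antibodies joined by the J chain, the product of Jchain, and crosses the epithelium on the receptor encoded by Pigr. The 2 kinds of cell use different genes: Pax5 and Ebf1 hold the B cell state, and Prdm1, Irf4 and Xbp1 serve the switch to secretion.

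The gut libraries differed far more from each other in B cell genes than in most other genes. Cd79a, the alpha chain of the B cell receptor complex (gene ID 12518, chromosome 7, 24897497 to 24901858, plus strand, GRCm38.p6), stood at 3.58, 22.4 and 48.9 CPM in PG_KO replicates 1, 2 and 3, and at 88.3, 115 and 36.6 CPM in ctr replicates 1, 2 and 3. PG_KO replicate 1 was lowest and ctr replicates 1 and 2 were highest, and the groups overlapped, because PG_KO replicate 3 lay above ctr replicate 3. The log2 change of PG_KO over ctr was -1.69 (SE 0.83, 95% interval -3.67 to 0.30), which did not pass (edgeR adjusted p = 0.360 over 18053 tested genes). With all 6 gut libraries and the low-count filter, edgeR's quasi-likelihood test called no gene at an adjusted p of 0.05. Without ctr replicate 3 it called 1482 genes, 3 of them members (Btk, Ebf1 and Tnfrsf13b). With so many genes called there, the 3 are no result about the members. The count over all 6 libraries is 0% of tested genes, with 15% at an unadjusted p under 0.05 (2707 genes), 464 genes called by DESeq2 and 0 by limma-voom. Of the 28 members that were tested, 0 were called by edgeR and 0 by limma-voom, and 1 by DESeq2, which called 2.57% of tested genes in either direction and 2.06% lower in PG_KO. Unadjusted p-values under 0.05 were found for 11 of the 28, all lower in PG_KO, a direction in which 9.72% of all tested genes had such values.

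**Figure D1:**
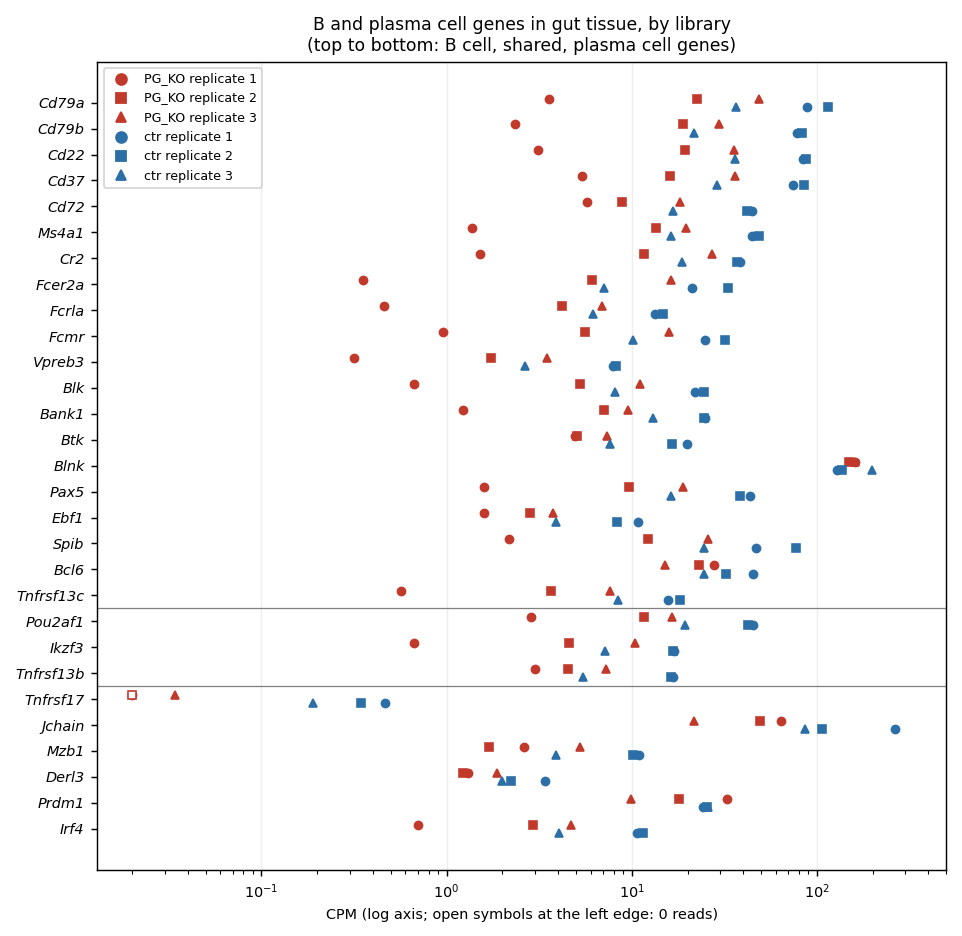
Level of each of the 29 genes in the 6 gut libraries, in CPM on a log axis. Red symbols are PG_KO and blue symbols ctr libraries, with 1 symbol shape per replicate number, and the open symbol marks 0 reads of Tnfrsf17 in PG_KO replicates 1 and 2, drawn at the same place. For most B cell genes PG_KO replicate 1 lies far to the left and PG_KO replicate 3 lies close to ctr replicate 3, whereas Blnk, Bcl6, Prdm1 and Jchain follow other orders.

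The other surface genes of B cells were likewise lowest in PG_KO replicate 1 and highest in ctr replicates 1 and 2. Cd79b, the beta chain of the same complex, stood at 2.33, 18.9 and 29.6 CPM in PG_KO and at 77.7, 83.2 and 21.6 CPM in ctr libraries (log2 change -1.84, SE 0.86, edgeR adjusted p = 0.350). Ms4a1, which encodes CD20, stood at 1.37, 13.6 and 19.6 CPM in PG_KO and at 44.5, 48.8 and 16.2 CPM in ctr libraries (log2 change -1.67, SE 0.84, edgeR adjusted p = 0.365). In both genes PG_KO replicate 3 again exceeded ctr replicate 3, so the groups overlapped. Cd22, an inhibitory receptor that binds sialic acid, stood at 3.10, 19.4 and 35.6 CPM in PG_KO and at 84.5, 87.3 and 36.2 CPM in ctr libraries (log2 change -1.84, SE 0.77, edgeR adjusted p = 0.332). Its groups did not overlap, though PG_KO replicate 3 and ctr replicate 3 were nearly equal.

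Among genes tied to the resting follicular B cell, Fcer2a had the widest spread within the PG_KO group of the 28 tested genes, with 10 reads in replicate 1. Cr2 (17.8-fold) and Fcmr (16.6-fold) spread about as widely as the kinase gene Blk (16.6-fold). Fcer2a, which encodes the low-affinity IgE receptor CD23, stood at 0.352, 6.10 and 16.2 CPM in PG_KO libraries, a 45.9-fold range, and at 21.2, 33.1 and 7.11 CPM in ctr libraries, a 4.65-fold range. Cr2, the complement receptor CD21 of B cells and follicular dendritic cells, stood at 1.52, 11.6 and 27.0 CPM in PG_KO and at 38.2, 36.9 and 18.7 CPM in ctr libraries. Fcmr, the IgM Fc receptor, stood at 0.951, 5.58 and 15.8 CPM in PG_KO and at 25.0, 32.0 and 10.1 CPM in ctr libraries. All 3 genes overlapped between the groups, with log2 changes of -1.44 (SE 1.09), -1.23 (SE 0.84) and -1.58 (SE 0.89) and edgeR adjusted p-values of 0.491, 0.458 and 0.390. Without PG_KO replicate 3 these changes were larger, and without PG_KO replicate 1 they were smaller, so that they ranged from -2.68 to -0.88 for Fcer2a and from -2.26 to -0.69 for Cr2. Fcrla, an Fc receptor-like protein kept inside B cells, and Vpreb3, a chaperone-like protein of the B cell receptor, were lower expressed, at 0.458 to 6.87 and 0.317 to 3.49 CPM in PG_KO and at 6.20 to 14.7 and 2.64 to 8.23 CPM in ctr libraries. Cd37, a tetraspanin, and Cd72, a coreceptor that dampens the signal, are also found on other leukocytes. Cd37 stood at 5.36 to 36.2 CPM in PG_KO and at 28.9 to 84.8 CPM in ctr libraries, and Cd72 at 5.74 to 18.3 CPM in PG_KO and at 16.6 to 44.5 CPM in ctr libraries. The 95% intervals of the log2 changes of Cd37 (-3.32 to -0.08) and Cd72 (-2.85 to -0.42) lay below 0, but neither passed over all genes (edgeR adjusted p = 0.330 for both).

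The stretches before the starts of 3 of these genes are shown, and each holds the letters of a factor named among the genes here. They are RefSeq sequence of GRCm38.p6, 5′ to 3′ in the direction of the gene, from base 140 to base 3 before the start of 1 RefSeq transcript of each gene, at chr7:30879031-30879168 (minus strand) for Cd22, chr4:43454629-43454766 (minus strand) for Cd72 and chr10:75948160-75948297 (plus strand) for Vpreb3, with the match in capitals. Each stretch lies inside the gene's span in the deposited tables, whose outermost start is farther upstream.
Cd22: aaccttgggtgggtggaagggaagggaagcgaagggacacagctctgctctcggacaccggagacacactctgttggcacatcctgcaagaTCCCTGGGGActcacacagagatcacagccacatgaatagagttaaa
Cd72: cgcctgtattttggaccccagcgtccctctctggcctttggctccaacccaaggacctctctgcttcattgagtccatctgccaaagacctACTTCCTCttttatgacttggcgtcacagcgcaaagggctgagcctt
Vpreb3: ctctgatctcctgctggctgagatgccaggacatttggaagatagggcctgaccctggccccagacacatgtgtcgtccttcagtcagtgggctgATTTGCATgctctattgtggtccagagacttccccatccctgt
The capitals in Cd22 match TCCC and GGGA with any 2 bases between them, the core of EBF1 sites, which reads the same on both strands. Those in Cd72 are the reverse complement of GAGGAAGT, the core bound by PU.1 and its relative Spi-B, and those in Vpreb3 are the reverse complement of the octamer ATGCAAAT, to which Pou2af1 is recruited. Promoters were given for 24 of the 29 genes, and the 250 bases before each start were searched on both strands for the 3 motifs, whose matches did not overlap each other. The octamer was found for Blnk and Vpreb3 and in 1.6% of all 32851 promoters, the EBF1 core for Cd22 and in 0.779%, and the Spi-B core for Cd37 and Cd72 and in 2.44%. A match describes letters, not binding. The octamer stood both before Vpreb3, which ran with the other B cell genes, and before Blnk, which did not. Between gut libraries the ratio to Cd79a reads varied 1.36-fold for Cd22, 1.25-fold for Vpreb3 and 4.4-fold for Cd72. Cd37 (2.07-fold) and Blnk (37.8-fold) also held a match and are not shown. Whether the letters bear on these levels was not tested.

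Among the signalling genes, Blk, a Src-type kinase of B cells, stood at 0.669, 5.26 and 11.1 CPM in PG_KO and at 21.9, 24.4 and 8.11 CPM in ctr libraries. Bank1, a scaffold of the receptor signal, stood at 1.23, 7.05 and 9.54 CPM in PG_KO and at 24.8, 24.5 and 13.1 CPM in ctr libraries, and its groups did not overlap (log2 change -1.81, SE 0.66, edgeR adjusted p = 0.330). Btk, a kinase of the B cell receptor signal that myeloid cells also use, stood at 4.93, 5.07 and 7.35 CPM in PG_KO and at 19.9, 16.4 and 7.65 CPM in ctr libraries. Btk was the member with the firmest difference: its log2 change was -1.32 (SE 0.38, 95% interval -2.22 to -0.42, edgeR adjusted p = 0.330), DESeq2 called it (log2 change -1.30, adjusted p = 0.0405), and over all alternatives its adjusted p ran from 0.0376, in the edgeR fit without ctr replicate 3, to 0.687. The B cell linker Blnk went its own way. It stood at 160, 149 and 160 CPM in PG_KO and at 129, 136 and 198 CPM in ctr libraries, with a log2 change of 0.03 (SE 0.22, 95% interval -0.49 to 0.54, edgeR adjusted p = 0.959). Per kilobase of exon it was the highest of the 29 genes in both groups, at 87.7 CPM per kilobase in PG_KO and 86.6 CPM per kilobase in ctr libraries, and it was 1 of the few that organoids also expressed, as described below.

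Among the transcription factors, Bcl6 stood apart from Pax5, Spib and Ebf1. Pax5, which commits cells to the B lineage, stood at 1.59, 9.70 and 18.9 CPM in PG_KO and at 43.6, 38.6 and 16.3 CPM in ctr libraries (log2 change -1.70, SE 0.78, edgeR adjusted p = 0.348). Spib, an Ets factor of B cells that M cells of the follicle epithelium also use, stood at 2.18, 12.3 and 25.8 CPM in PG_KO and at 46.7, 77.2 and 24.7 CPM in ctr libraries, and had the most negative change of the 28 tested genes (log2 change -1.89, SE 0.81, edgeR adjusted p = 0.334). Ebf1, which B cells share with stromal cells, stood at 1.59, 2.81 and 3.76 CPM in PG_KO and at 10.8, 8.32 and 3.9 CPM in ctr libraries without overlap (log2 change -1.48, SE 0.47, edgeR adjusted p = 0.330). Bcl6, the repressor that governs germinal centre B cells and is active in many other tissues, differed less: it stood at 27.8, 23.1 and 15.2 CPM in PG_KO and at 45.3, 32.2 and 24.6 CPM in ctr libraries (log2 change -0.60, SE 0.30, edgeR adjusted p = 0.365). In Bcl6 PG_KO replicate 3, not replicate 1, was the lowest library.

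Of the receptors for the survival factors BAFF and APRIL, Tnfrsf13c, the BAFF receptor of resting B cells, stood at 0.564, 3.68 and 7.66 CPM in PG_KO and at 15.6, 18.3 and 8.38 CPM in ctr libraries without overlap (log2 change -1.83, SE 0.79, edgeR adjusted p = 0.338). Tnfrsf13b, which encodes TACI of activated B cells and plasma cells, stood at 2.99, 4.51 and 7.25 CPM in PG_KO and at 16.6, 16.2 and 5.47 CPM in ctr libraries (log2 change -1.36, SE 0.50, edgeR adjusted p = 0.330). Tnfrsf17, which encodes BCMA of plasma cells, was close to the limit of detection and was not tested: 0, 0 and 1 reads in PG_KO and 13, 8 and 5 reads in ctr libraries, a ratio of 0.0358 with a 95% counting interval of 0.000874 to 0.218 that covers counting error only. Pou2af1, the coactivator of octamer-binding factors in B and plasma cells, stood at 2.85, 11.6 and 16.4 CPM in PG_KO and at 45.3, 42.4 and 19.4 CPM in ctr libraries without overlap (log2 change -1.79, SE 0.61, edgeR adjusted p = 0.330). Ikzf3, which encodes Aiolos, stood at 0.669, 4.59 and 10.4 CPM in PG_KO and at 16.9, 16.7 and 7.19 CPM in ctr libraries with overlap (log2 change -1.38, SE 0.83, edgeR adjusted p = 0.416).

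The 6 listed plasma cell genes did not share 1 order of libraries, and not all of them are particular to plasma cells. Jchain, Tnfrsf17 and Derl3 had every PG_KO library below every ctr library, whereas Mzb1, Irf4 and Prdm1 overlapped. Jchain stood at 63.9, 49.4 and 21.6 CPM in PG_KO and at 263, 107 and 86.0 CPM in ctr libraries, so the groups did not overlap and PG_KO replicate 3, the PG_KO library richest in B cell genes, was lowest (log2 change -1.71, SE 0.54, 95% interval -2.99 to -0.43, edgeR adjusted p = 0.330). Mzb1, a chaperone of immunoglobulin assembly, stood at 2.61, 1.70 and 5.23 CPM in PG_KO and at 11, 10.2 and 3.9 CPM in ctr libraries (log2 change -1.37, SE 0.55, edgeR adjusted p = 0.330), with PG_KO replicate 2 lowest. Irf4, which activated B cells also use, ran with the B cell genes, at 0.705, 2.93 and 4.68 CPM in PG_KO and at 10.7, 11.5 and 4.05 CPM in ctr libraries (log2 change -1.65, SE 0.69, edgeR adjusted p = 0.332). Derl3, a protein of endoplasmic reticulum quality control, stood at 1.30, 1.23 and 1.88 CPM in PG_KO and at 3.40, 2.24 and 1.99 CPM in ctr libraries without overlap (log2 change -0.77, SE 0.37, edgeR adjusted p = 0.355). Its mean was 2.01 CPM over the gut libraries and 2.04 CPM over the organoid libraries, so its reads in gut need not come from plasma cells. Prdm1, which encodes Blimp-1, stood at 32.5, 18.1 and 9.95 CPM in PG_KO and was nearly level in ctr libraries at 24.2, 25.6 and 25.7 CPM. PG_KO replicate 1, lowest in B cell genes, was therefore the highest library for Prdm1, whose log2 change was -0.29 (SE 0.42, edgeR adjusted p = 0.726) and 0.06 without PG_KO replicate 3.

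**Figure D2:**
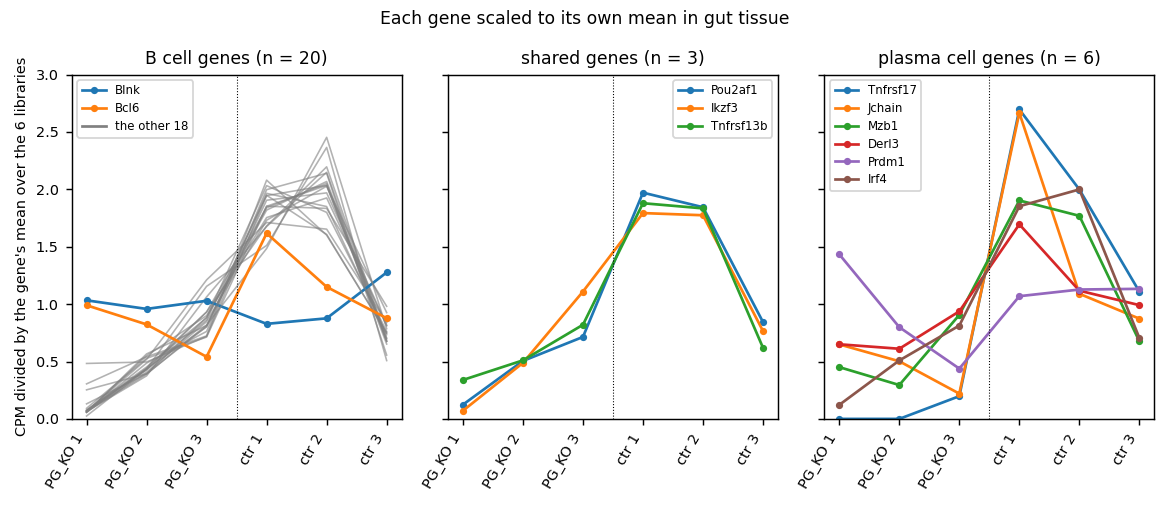
Each gene's CPM divided by its own mean over the 6 gut libraries, for B cell genes (left), shared genes (middle) and plasma cell genes (right). Lines join the values of 1 gene, and replicates of a group have no order. The 18 B cell genes other than Blnk and Bcl6 (grey) are all lowest in PG_KO replicate 1 and highest in ctr replicates 1 and 2, while the plasma cell genes trace several.

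Scaled to each gene's own mean, the B cell genes had a median of 0.0696 in PG_KO replicate 1, 0.447 in PG_KO replicate 2 and 0.854 in PG_KO replicate 3, against 1.83 in ctr replicate 1, 2.00 in ctr replicate 2 and 0.749 in ctr replicate 3. PG_KO replicate 1 was the lowest of the 6 libraries for 18 of 20 B cell genes, and 21.8% of all tested genes had it lowest. The full order, with ctr replicates 1 and 2 on top and PG_KO replicate 1 at the bottom, held for the same number, 18 of 20, and for 8.11% of tested genes. The exceptions were Blnk and Bcl6. Within the PG_KO group the highest library exceeded the lowest over 5-fold in 15 of 20 B cell genes, which 4.27% of tested genes did, and the median ratio was 11.9, against 1.41 for all tested genes. Within the ctr group the median ratio was 2.73 for B cell genes and 1.58 for all tested genes. PG_KO replicate 3 exceeded ctr replicate 3 in 13 of the 20 genes, and in 56.2% of all tested genes. Groups without overlap, all with PG_KO below ctr, were found for 8 of the 28 tested genes and for 8.66% of all tested genes. An exact permutation test of 3 against 3 libraries cannot give a two-sided p below 0.10. The median log2 change was -1.67 for the 20 B cell genes and -1.37 for the 5 tested plasma cell genes, beside -0.03 for all tested genes. The B cell median was -2.53 without PG_KO replicate 3. Fewer cells and less RNA per cell cannot be told apart in such bulk samples.

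**Figure D3:**
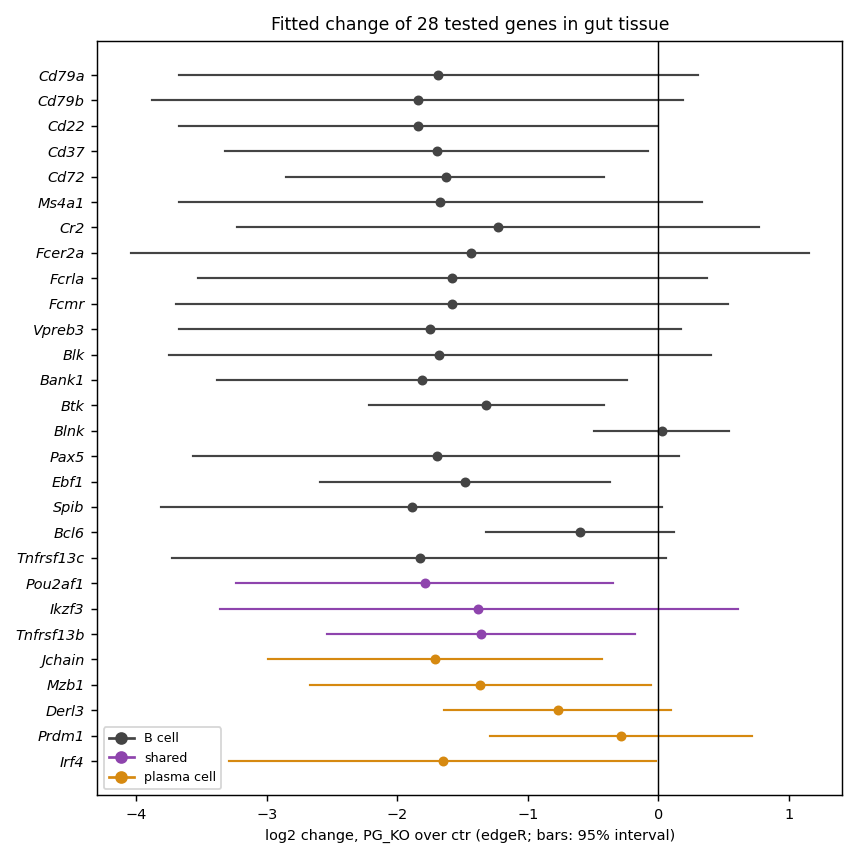
Fitted log2 change of PG_KO over ctr gut libraries for the 28 tested genes (points) with 95% intervals (bars) from the edgeR fit. Points lie between -1.89 and 0.03, and the intervals of 11 genes exclude 0 before adjustment over all genes.

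Ratios of reads within 1 library compare 2 genes without the scaling between libraries. Reads of Cd22 per read of Cd79a ran only from 0.727 to 0.989 over the 6 libraries, those of Pax5 from 0.334 to 0.493 and those of Spib from 0.527 to 0.675. These genes thus held close to fixed proportions although their levels differed by more than 10-fold between libraries. For 16 of the 27 other genes with reads in every library the ratio to Cd79a varied less than 3-fold, and for 5 it varied 10-fold or more. Those 5 were Derl3 (18.7-fold), Bcl6 (27.6-fold), Blnk (37.8-fold), Jchain (40.2-fold) and Prdm1 (44.5-fold). Reads of Jchain per read of Cd79a were 17.8, 2.21 and 0.442 in PG_KO libraries and 2.97, 0.931 and 2.35 in ctr libraries. Jchain kept a fixed proportion to another gene, the IgA heavy chain Igha, with 5.03, 4.59 and 5.83 reads of Igha per read of Jchain in PG_KO and 5.65, 5.33 and 5.18 in ctr libraries.

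The antibody genes showed the same division. Igha stood at 321, 227 and 126 CPM in PG_KO and at 1485, 572 and 445 CPM in ctr libraries, in the order of Jchain and without overlap (log2 change -1.84, SE 0.54, edgeR adjusted p = 0.330, DESeq2 adjusted p = 0.0322). Ighm, the heavy chain of IgM, stood at 19.5, 49.0 and 82.9 CPM in PG_KO and at 198, 220 and 69.4 CPM in ctr libraries, in the order of the B cell genes. Ighd, whose IgD marks resting B cells that have not met antigen, stood at 1.23, 12.4 and 21.2 CPM in PG_KO and at 53.3, 57.3 and 23.6 CPM in ctr libraries. Igha made up 91.3%, 77.9% and 54.1% of heavy chain constant region CPM in PG_KO libraries and 84.4%, 66.2% and 82.1% in ctr libraries, so the share of IgA overlapped between the groups and was both highest and lowest in PG_KO libraries. The IgG genes and Ighe together were minor in every library, and Ighg2c was the highest IgG gene in PG_KO replicate 1, at 1.40% of the heavy chain. DESeq2 called 2.06% of all tested genes lower in PG_KO. Of 12 constant region genes 11 were tested, 0 were called by edgeR and 4 by DESeq2, all lower in PG_KO, namely Iglc3 (log2 change -1.83, SE 0.36), Igkc (-1.67, SE 0.46), Igha and Iglc2 (-1.92, SE 0.57). Their reads can be shared with near-identical copies, above all among the lambda genes. Of 102 kappa variable segments, 55, 57 and 60 had at least 3 reads in PG_KO libraries and 83, 80 and 69 in ctr libraries, where more reads were there to be counted. The most abundant segment took 7.69%, 17.9% and 7.22% of kappa variable reads in PG_KO and 15.2%, 9.28% and 9.74% in ctr libraries, with the highest and the lowest share both in PG_KO libraries.

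**Figure D4:**
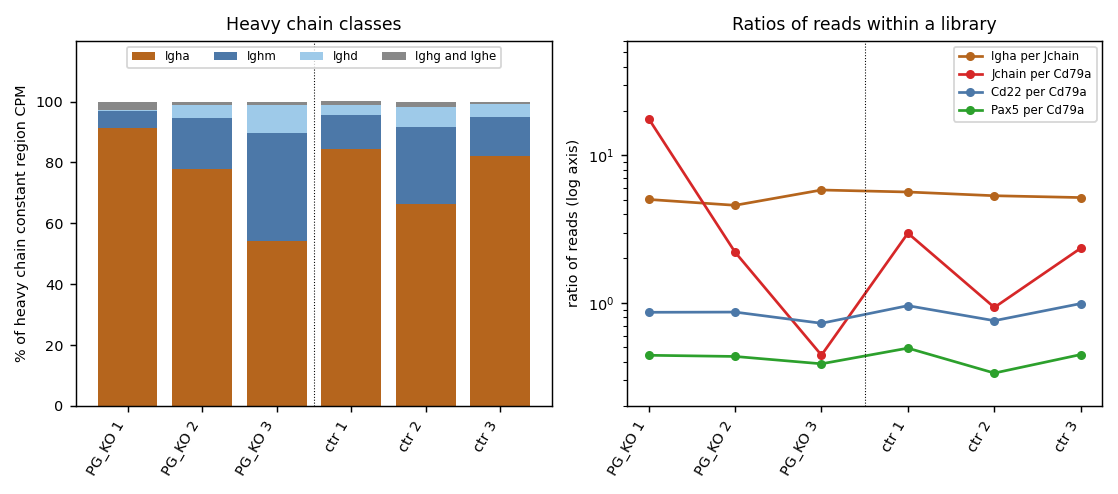
Left, make-up of heavy chain constant region reads in each gut library, in percent. Right, ratios of reads within each gut library on a log axis. The ratios Igha per Jchain, Cd22 per Cd79a and Pax5 per Cd79a are nearly flat, while Jchain per Cd79a runs from 0.442 to 17.8.

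Other genes of B cell signalling, a list of 25, were all tested. None was called by edgeR, 14 had an unadjusted p under 0.05, all lower in PG_KO, and DESeq2 called 6 of them lower, with a median log2 change of -0.94. Of all tested genes 9.72% were lower at such a p, and DESeq2 called 2.06% lower. The phosphatase Inpp5d, which ends phosphoinositide signals, had a log2 change of -1.28 (SE 0.27) and the phospholipase Plcg2 of -0.87 (SE 0.19), both with edgeR adjusted p = 0.330 and with DESeq2 adjusted p-values of 0.00659 and 0.00636. Both are used by other leukocytes too. Of 16 other plasma cell and secretory genes 0 were called by edgeR and 1 by DESeq2, with a median of 0.06 and both directions present: the T cell costimulator Cd28, which long-lived plasma cells also carry, had a log2 change of -1.75 (SE 0.43), whereas the chaperones Hsp90b1 and Creld2 had log2 changes of 0.70 (SE 0.27) and 0.81 (SE 0.32), all with edgeR adjusted p = 0.330. Most of this list is also expressed in epithelium, since 14 of the 16 genes passed the low-count filter in organoids. Organoids held 2455 to 3550 summed CPM of the list, PG_KO gut libraries 3171 to 3629 and ctr gut libraries 2480 to 3707. Of 8 tested germinal centre genes 0 were called by either tool.

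Among 24 tested genes of B cell homing and survival, 0 were called by edgeR, 11 had an unadjusted p under 0.05, all lower in PG_KO, and DESeq2 called 4. Over all tested genes the shares lower in PG_KO were 9.72% at such a p and 2.06% by DESeq2. Tnfsf13b, which encodes BAFF, the survival factor of B cells, stood at 7.65, 5.30 and 7.28 CPM in PG_KO and at 24.5, 23 and 14.8 CPM in ctr libraries without overlap. Its log2 change was -1.59 (SE 0.28, 95% interval -2.25 to -0.94, edgeR adjusted p = 0.330, DESeq2 adjusted p = 3.6e-05). Pigr, the epithelial IgA transporter, stood at 417, 826 and 693 CPM in PG_KO and at 897, 2121 and 1898 CPM in ctr libraries without overlap (log2 change -1.36, SE 0.39, edgeR adjusted p = 0.330, DESeq2 adjusted p = 0.0473). Both were spread under 2-fold within the PG_KO group. Cxcl13, the chemokine with which follicle stroma draws in B cells, stood at 3.21, 101 and 34.2 CPM in PG_KO and at 460, 218 and 125 CPM in ctr libraries, again with PG_KO replicate 1 lowest by far (log2 change -2.54, SE 1.06, edgeR adjusted p = 0.332).

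Markers of other cell types also differed between the libraries, in part in other orders than the B cell genes, and their part in the results was not tested. T cell genes summed to 19.8, 34.5 and 36.7 CPM in PG_KO and to 77.5, 93.0 and 39.0 CPM in ctr libraries. In organoids the same list summed to 13.9 to 33 CPM, so much of the lower sums need not come from T cells. Of the 14 genes 12 had an unadjusted edgeR p under 0.05, all lower in PG_KO, beside 9.72% of all tested genes. Smooth muscle genes summed to 644, 944 and 1249 CPM in PG_KO and to 4484, 3621 and 709 CPM in ctr libraries, with all 8 changes negative, as were 9494 of the 18053 tested genes. In both lists PG_KO replicate 1 was lowest and ctr replicates 1 and 2 were highest, as in most B cell genes. Fibroblast genes summed to 1270, 1367 and 629 CPM in PG_KO and to 3627, 2161 and 919 CPM in ctr libraries. Endothelial genes summed to 61.1, 92.0 and 40.3 CPM in PG_KO and to 258, 149 and 52 CPM in ctr libraries. Macrophage and dendritic cell genes summed to 1126, 816 and 319 CPM in PG_KO and to 2203, 1028 and 709 CPM in ctr libraries, and neutrophil genes to 871, 861 and 428 CPM in PG_KO and to 2050, 878 and 926 CPM in ctr libraries. In these 4 lists PG_KO replicate 3, the PG_KO library richest in most B cell genes, was the lowest of the 6 libraries. Epithelial genes summed to 15872, 12481 and 15112 CPM in PG_KO and to 8667, 11389 and 13991 CPM in ctr libraries, with all 10 changes positive, as were 8559 of the 18053 tested genes. M cell genes summed to 669, 542 and 380 CPM in PG_KO and to 710, 531 and 456 CPM in ctr libraries, and the groups overlapped. In organoids the M cell list summed to 151 to 835 CPM and the macrophage and dendritic cell list to 54.9 to 396 CPM. Part of each gut sum therefore need not come from those cells. Over these lists edgeR called 0 genes, and DESeq2 called 4 T cell genes and 1 macrophage and dendritic cell gene lower in PG_KO, beside 2.06% of all tested genes. DESeq2 called 0 genes of the other 6 lists and 0 of the 11 follicular dendritic and lymphoid stroma genes, to which Cxcl13 belongs.

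The organoids gave the epithelial background. Of the 29 genes, 17 had fewer than 20 reads in all 9 organoid libraries together and none of these exceeded 0.163 CPM in a library, among them Cd22, Ms4a1, Pax5, Blk and Jchain. Irf4 had 0 reads, which allows up to 0.0115 CPM over the 9 libraries. Cd79a had 27 reads and stood at 0 to 0.234 CPM. In gut, by contrast, Cd79a averaged 25.0 ± 22.8 CPM in PG_KO and 80.1 ± 40 CPM in ctr libraries (SD, n = 3 each). Blnk, Bcl6 and Derl3 were the exceptions, each with more than 200 reads, and the remaining 9 genes had at most 1.91 CPM in a library.

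**Figure D5:**
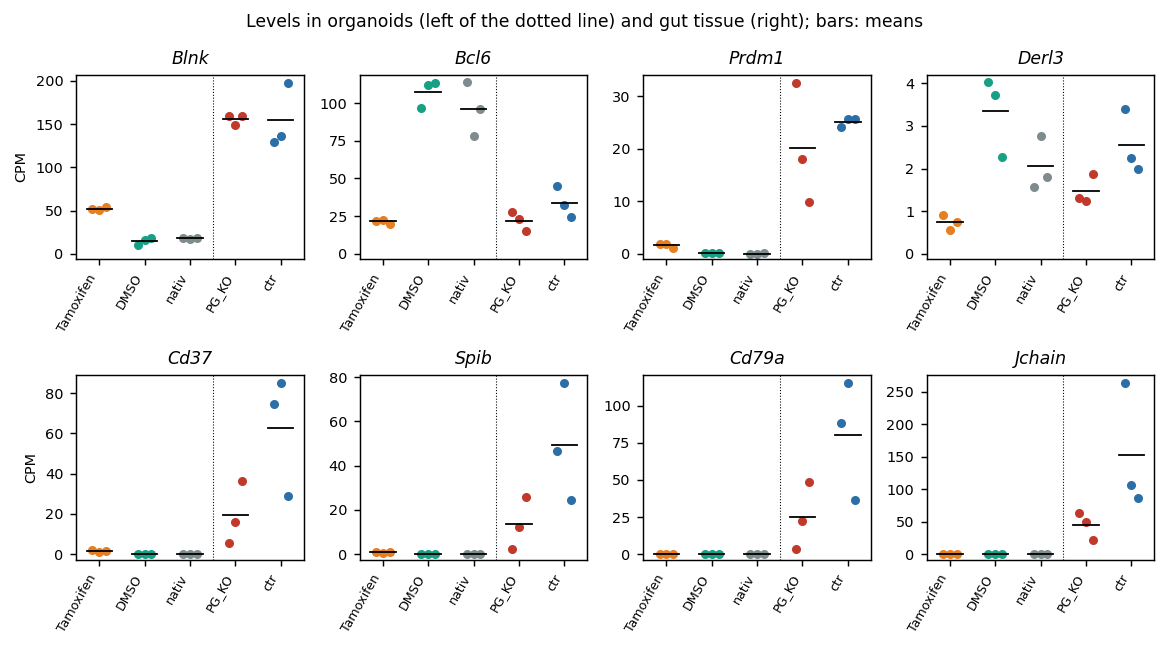
CPM of 8 genes in each library of the Tamoxifen, DMSO and nativ organoids and of PG_KO and ctr gut tissue; points are libraries and bars are means. Blnk, Bcl6 and Derl3 are present in every organoid library, Cd37, Spib and Prdm1 are low and highest in Tamoxifen organoids, and Cd79a and Jchain stay near 0.

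Between organoid groups, 7 of the 29 genes could be tested. Among them Cd37, Spib and Prdm1 passed the low-count filter only through the Tamoxifen libraries. A fall in Tamoxifen organoids could hardly have been seen for them, so their p-values are no support and are left out. In Tamoxifen against DMSO organoids 4 rose, of which only Blnk did not depend on the filter in this way, 2 fell and Cd79b did not pass (edgeR adjusted p = 0.278). Of all tested genes 66.4% were called, 33.9% higher and 32.5% lower, so a share of this size is no result about the members. Tamoxifen against nativ organoids gave the same counts, where 66.9% of all genes were called, 33.4% higher and 33.5% lower, and both comparisons use the same Tamoxifen libraries, whose code, Cre and treatment cannot be told apart. Blnk stood at 52.2, 51.0 and 54.1 CPM in Tamoxifen organoids, at 9.91, 15.6 and 18.6 CPM in DMSO organoids and at 17.9, 17.6 and 18.5 CPM in nativ organoids. Its log2 change was 1.76 against DMSO (SE 0.19, edgeR adjusted p = 1.3e-05) and 1.42 against nativ (SE 0.19, edgeR adjusted p = 6.16e-05), and every Tamoxifen library lay above every other. Bcl6 stood at 22.1, 22.6 and 20 CPM in Tamoxifen organoids, at 96.9, 112 and 113 CPM in DMSO organoids and at 114, 78 and 95.8 CPM in nativ organoids. Its log2 change was -2.39 against DMSO (SE 0.12, edgeR adjusted p = 2.9e-08) and -2.26 against nativ (SE 0.12, edgeR adjusted p = 4.43e-08). Bcl6 in organoids thus reached several times its level in gut tissue in both T75 groups and lay within the range of the gut libraries in the Tamoxifen group.

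The plasma cell regulator Prdm1, which also acts in intestinal epithelium, stood at 1.87, 1.85 and 1.11 CPM in Tamoxifen organoids, at 0.0677, 0.119 and 0.131 CPM in DMSO organoids and at 0.0328 to 0.0696 CPM in nativ organoids. The low levels rest on 2, 3 and 4 reads in DMSO and on 1, 1 and 2 reads in nativ organoids. Its log2 change was 3.81 against DMSO (SE 0.39) and 4.91 against nativ (SE 0.44). By counts alone its ratio to nativ was 35.8 (95% counting interval 13.7 to 133). Spib stood at 0.769, 0.561 and 1.14 CPM in Tamoxifen organoids, and rested on 4 reads in DMSO and 3 reads in nativ organoids. By counts alone its ratio was 17.3 to DMSO (95% counting interval 6.48 to 65.3) and 23.9 to nativ (7.85 to 118). Cd37 stood at 1.91, 1.27 and 1.43 CPM in Tamoxifen organoids and had 0 reads in DMSO organoids, at least 43.6-fold higher with a floor of 3 reads over the group. Against nativ organoids, which had 6 reads, nearly all in replicate 2, its ratio was 22.5 (95% counting interval 10.1 to 62.5). The fitted log2 change there was 4.28 (SE 0.63), and it was 6.12 without nativ replicate 2 and 3.65 without nativ replicate 1. Cd37 overlaps Tead2 on the other strand and the strand setting of the counts is not given in the sources used here, and Tead2 was lower in Tamoxifen organoids, at 7.47 CPM on average, than in DMSO at 33.7 CPM and nativ at 25.9 CPM. Derl3 stood at 0.903, 0.553 and 0.751 CPM in Tamoxifen organoids, at 4.03, 3.73 and 2.26 CPM in DMSO organoids and at 1.57, 2.77 and 1.81 CPM in nativ organoids, and fell against both (log2 change -2.25, SE 0.35 and -1.61, SE 0.36, edgeR adjusted p = 2.11e-04 and 0.00223). In DMSO against nativ organoids 0 of the 7 genes were called by edgeR or limma-voom and 0 had an unadjusted edgeR p under 0.05, where both tools called 0% of all genes and 14.7% had such a p. DESeq2 gave an adjusted p for 3 of the 7 (Blnk, Bcl6 and Derl3) and called none of these, where it called 0.924% of all genes. The intervals there were wide for the low genes, at -2.23 to 2.95 on the log2 scale for Spib, and narrow for Bcl6, at -0.12 to 0.38. Cd37, Spib and Prdm1 had few reads in both groups, so a difference between them could hardly be seen.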

How the data were processed

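Poly(A) RNA of 15 mouse libraries had been sequenced. The labels give RNA integrity numbers of 7.7 or more. Per the submitters' processing notes, the tools behind the tables include featureCounts 1.6.4, STAR 2.7.2b, DESeq2, cutadapt 2.5 and bcl2fastq 2.20.0.422, with the build GRCm38.p6; the strand setting is not given in the sources used here. The deposited values are expected counts, of which 10.4% to 13.7% per library are not whole, so shared reads were divided; they were rounded before fits. The deposited tables also give each gene's combined exon length, and 1 gut column name differs by 1 letter from its description. Totals were 23194385 to 29257641 reads in gut and 25185053 to 30744563 in organoids, so 3 reads are about 0.1 CPM. CPM use library totals, and floors and intervals on counts cover counting error only.

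Tests were edgeR 4.0.16 quasi-likelihood F tests in R 4.3.3 (TMM, filterByExpr, robust, Benjamini-Hochberg over all tested genes, threshold 0.05), in 1 fit of 6 gut and 1 of 9 organoid libraries. SE are the absolute log2 change over the square root of F, and 95% intervals use its degrees of freedom. On simulated counts with the spread of PG_KO and ctr gut (17803 genes), 7.22% of 97 genes changed by 1 log2 unit were recovered. Of 96 genes changed by 2 log2 units 52.1% were, and there were 9 false calls. The changed genes were drawn at random, so these shares need not hold for B cell genes, which spread more widely within PG_KO. For Tamoxifen and DMSO organoids (16081 genes) 72.9% of 96 and 96% of 100 were recovered, with 15 false calls. Alternatives used DESeq2 1.42.0, limma-voom (limma 3.58.1), other scalings and filters, the replicate number as a block, and libraries left out. Genes outside the 29 are named by a rule: per fixed list, up to 4 with the smallest p and at least 1 CPM in a group, and antibody constant genes by level; Tead2, which overlaps Cd37, was named after its values were seen. Members and lists were chosen with earlier results of these data known. Of the list genes, 1 was not found by symbol. Of the 29 genes, 12 overlap another annotated gene, 4 of them a protein-coding one (Cd37, Cd72, Fcer2a and Tnfrsf13b), and without the strand their reads are uncertain. Figures were drawn with matplotlib 3.10.9.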

Additional observations from a re-analysis of the deposited data

How the results depend on the processing

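In gut, no setting but DESeq2 and the fit without ctr replicate 3 called any of the 29 genes. DESeq2 called 464 genes in all and 1 member, Btk. Leaving out 1 library at a time gave 0 to 1482 called genes and 0 to 3 called members. Both upper values came without ctr replicate 3, where Btk (-1.59), Ebf1 (-1.76) and Tnfrsf13b (-1.69) were called. With so many genes called there, those 3 are no result about the members. Without the low-count filter 5 genes were called. The median log2 change ranged from -2.53 to -1.20 for B cell genes and from -1.67 to -1.05 for plasma cell genes when 1 library was left out, and the plasma median was -0.77 without ctr replicate 1 and PG_KO replicate 3. The sign of Blnk changed without PG_KO replicate 1 (-0.01), ctr replicate 1 (-0.11), ctr replicate 2 (-0.03) and the pair (-0.12), and its values ranged from -0.11 to 0.31 without 1 library; Prdm1 ranged from -0.85 to 0.06. The causes were not tested. Same-numbered gut libraries did not all deviate together (correlations 0.290, -0.184 and 0.154), so the numbers were not taken as pairs; with the replicate block 0 gut genes and 0 members were called, and the B cell and plasma cell medians were -2.07 and -1.42. In organoids the block gave 10833 and 10838 calls for Tamoxifen against DMSO and nativ, with 6 members called in each, and 0 for DMSO against nativ. There DESeq2 called 152 genes and 0 members, the fit without a filter 3 genes, and leaving out 1 library 0 to 1. Cd79b against nativ ranged from -0.29 to 0.30 and Spib in DMSO against nativ from -0.81 to 1.29 without 1 library, changing sign. Library totals moved the median of all genes from 0.01 to 0.13 in Tamoxifen against nativ organoids. Depth limits Tnfrsf17 in gut and most members in organoids.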
